A study of Mus musculus with 2 samples.

Results

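The results below concern 10 genes of the acute-phase response in mouse liver: the serum amyloid A genes Saa1, Saa2, Saa3 and Saa4, the orosomucoid genes Orm1, Orm2 and Orm3, and Lcn2, Hp and Fgb. They were chosen by their role and from earlier results of these same libraries, so that levels and differences between libraries and liver zones are a description and carry no test. All 10 were among the 19059 genes counted, and all 10 reached 20 counts per 1000000 counts (CPM) in hepatocyte-like cells of at least 1 library. The data were 2 single-cell libraries, 1 for each genotype. The AEG-1DMAC genotype lacks AEG-1 (gene symbol Mtdh) in myeloid cells, through floxed alleles and a Cre expressed from the Lyz2 locus, which is active in macrophages, monocytes and neutrophils. The AEG-1fl/fl genotype carries the floxed alleles without Cre. Mice of both genotypes had been fed HF/HSD, a diet rich in fat and sugar, from 7 weeks of age for 20 weeks and were 27 weeks old. Fixed liver cells were profiled with hybridized probes, and neither the sex of the mice in each library nor the number of livers per library is stated in the sources used here.

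With 1 library per genotype nothing separates genotype from animal or from preparation, and no p-value was computed. Every interval given is a 95% interval for counting error only, except those on percents of cells, which take the cells of 1 library as independent draws. No interval covers the spread between animals. Before filtering, the library labelled AEG-1DMAC held 2581 cells and 79589511 counts and that labelled AEG-1fl/fl held 3535 cells and 90440089 counts, with 10 barcodes found in both. Mtdh went against the labels. In macrophage-like cells it had 402 counts (111 CPM) in the library labelled AEG-1DMAC and 210 counts (28.6 CPM) in the library labelled AEG-1fl/fl, a log2 ratio of 1.96 (1.72 to 2.21). In hepatocyte-like cells Mtdh stood at 62.1 and 58.2 CPM in the libraries labelled AEG-1DMAC and AEG-1fl/fl. The files give no probe positions, so whether the probes lie in the deleted part is not known. Whether the labels of the libraries are exchanged was not tested either, so every difference between libraries below is given by label. Lyz2 was counted in macrophage-like cells of both libraries at 1370 and 1076 CPM. The Y-linked gene Eif2s3y was counted in hepatocyte-like cells of both at 43.7 and 46.6 CPM.

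The acute-phase response is the change in liver secretion that follows infection or tissue injury. Interleukin-6 acts through STAT3, and interleukin-1 and tumor necrosis factor act through NF-κB and C/EBP factors, to raise the transcription of secreted proteins in hepatocytes. Saa1 and Saa2 encode the inducible serum amyloid A proteins carried on high-density lipoprotein, Saa3 encodes a form made by many tissues, and Saa4 encodes the form that is made without stimulation. Orosomucoids bind drugs and lipids in plasma, lipocalin 2 (Lcn2) binds bacterial iron carriers, haptoglobin (Hp) binds free hemoglobin, and Fgb encodes the beta chain of fibrinogen.

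The members lie in 2 gene clusters and at 3 single loci of the GRCm38 assembly, as annotated by GENCODE, and all are protein-coding. On chromosome 7, Saa3 (46711998 to 46715700), Saa4 (46727998 to 46732603) and Saa1 (46740497 to 46742980) lie on the minus strand and Saa2 (46751790 to 46754313) on the plus strand, within 42.3 kb. On chromosome 4, Orm1 (63344560 to 63348163), Orm3 (63356162 to 63359511) and Orm2 (63362449 to 63365878) follow each other on the plus strand within 21.3 kb. Lcn2 is on chromosome 2 (32384633 to 32388252), Fgb on chromosome 3 (83040141 to 83049863) and Hp on chromosome 8 (109575128 to 109579172), all on the minus strand. The longest coding transcripts of Saa1 and Saa2 are identical at 94.4% of aligned bases, those of Orm1 and Orm2 at 91.0%, of Orm2 and Orm3 at 89.0% and of Orm1 and Orm3 at 87.5%. Saa1 was identical to Saa3 at 91.5% and to Saa4 at 91.4% of aligned bases, and Saa2 to Saa3 at 89.5%. The longest transcripts of Saa3 and Saa4 hold 2200 and 2094 bases against 609 in Saa1, so these alignments cover only a fraction of them. Gaps were left out of the shares, so a short transcript spread over a long one can score high, and these values do not measure likeness. Saa3 and Saa4, which are of similar length, were identical at 71.9% of 1736 aligned bases. How the probes divide the genes of each family is not given, so the split among the 4 serum amyloid genes and among the 3 orosomucoids is uncertain. Probes also differ in number and strength from gene to gene, so that CPM values are compared for each gene between cells and not between genes.

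Promoter sequence was at hand for 8 members in the RefSeq table of GRCm38.p6, and Orm1 and Hp had no entry. The motif TTGCNNAA, a form of the C/EBP site, was searched on both strands of the 250 bases before each start site. It was present in 8 of the 8 promoters, against 9.56% of the 32851 promoters in the table. These 8 are not independent cases. The promoters of Saa1 and Saa2 are identical at 95.6% of aligned bases and those of Orm2 and Orm3 at 89.4%. The STAT motif TTCNNNGAA was in 1 of 8 (Fgb), against 7.02% of all promoters, and the NF-κB motif (GGG, 5 bases of any kind, CC) in 4 of 8 (Saa1, Saa2, Saa4 and Lcn2), against 45.8%, which leaves little to read from it. A match is a description of letters and not of a bound site. The 28 bases around the C/EBP match nearest to the start are shown because this was the sequence feature that all 8 had in common. They are written on the strand of the gene with the match in capitals, which reads TTGCNNAA on that strand except in Saa3 and Saa4, where the match is on the opposite strand, and in Orm2 it reads the same on both.
Saa1 (chr7:46743145-46743172): tgtgctcccaTTGCACAAtgagggagaa
Saa2 (chr7:46751640-46751667): tgtgctcccaTTGCACAAtgagggaaaa
Saa3 (chr7:46715758-46715785): gtaagtgggaTTATGCAAgatcaaacag
Saa4 (chr7:46732638-46732665): ccaggaaggaTTGAGCAAgagggactct
Orm2 (chr4:63362319-63362346): agagaacattTTGCGCAAgacatttccc
Orm3 (chr4:63356027-63356054): agggaacattTTGCACAAgacatttatc
Lcn2 (chr2:32387938-32387965): gcccttcctgTTGCTCAAccttgcacag
Fgb (chr3:83049926-83049953): tgggaagatgTTGCTCAAatgataaagc

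Orm2 and Orm3 lie side by side and had identical letters at 89.4% of the aligned bases of their promoters, yet their levels behaved differently in the values given below. Their upstream 250 bases (chr4:63362199-63362448 for Orm2 and chr4:63355908-63356157 for Orm3, plus strand) are therefore printed, with that of Saa1 (chr7:46742981-46743230, minus strand) for comparison. Capitals mark the C/EBP and NF-κB matches.
Orm2: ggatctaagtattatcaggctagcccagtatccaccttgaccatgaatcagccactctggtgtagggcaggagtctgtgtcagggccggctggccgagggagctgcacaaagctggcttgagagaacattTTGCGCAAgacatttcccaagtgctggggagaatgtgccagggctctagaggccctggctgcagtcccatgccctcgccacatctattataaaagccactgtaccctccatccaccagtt
Orm3: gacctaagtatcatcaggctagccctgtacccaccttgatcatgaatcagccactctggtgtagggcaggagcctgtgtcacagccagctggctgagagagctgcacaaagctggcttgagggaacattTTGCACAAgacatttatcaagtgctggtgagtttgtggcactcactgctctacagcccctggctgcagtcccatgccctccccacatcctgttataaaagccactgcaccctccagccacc
Saa1: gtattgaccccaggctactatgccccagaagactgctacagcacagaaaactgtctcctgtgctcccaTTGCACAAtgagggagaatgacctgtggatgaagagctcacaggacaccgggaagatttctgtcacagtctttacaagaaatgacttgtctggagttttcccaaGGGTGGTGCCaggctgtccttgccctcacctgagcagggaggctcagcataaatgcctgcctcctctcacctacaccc

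The cells were sorted into classes by summed marker genes, none of them a member. Of the cells kept, 1263 of 2571 (49.1%) in the library labelled AEG-1DMAC and 1273 of 3508 (36.3%) in the library labelled AEG-1fl/fl were hepatocyte-like, with a median of 25619 and 23729 counts. The class is a range of a score, and 92 hepatocyte-like cells of each library lay near the limit, with the score of another type at 0.4 or more of its cut. Hepatocyte genes kept out of the gate (Cyp2e1, Cyp3a11, Ass1, Arg1, Hnf4a and Slc10a1) summed to 9405 and 7141 CPM there. The held-out markers of macrophages summed to 404 and 346 CPM in the same cells, with medians over cells of 3.54 and 3.18 counts per 10000, and those of cholangiocytes to 107 and 261 CPM. Markers of the remaining 6 types summed to at most 111 CPM.

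In hepatocyte-like cells, 4 of the 10 members differed by 2-fold or more between the libraries. Saa3 and Lcn2 were lower, and Saa4 and Orm3 higher, in the library labelled AEG-1DMAC. Over all genes with at least 20 CPM in either library, 1.19% (72 of 6058) differed by that much in either direction. Since differences between these libraries helped to choose the members, the share among them is not a result. The median log2 ratio over those 6058 genes was 0.02, with 90% of genes between -0.42 and 0.39.

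The inducible serum amyloid genes were all lower in the library labelled AEG-1DMAC. Saa1 had 48270 counts (768 CPM, interval 761 to 775) there and 88350 counts (1357 CPM, 1348 to 1366) in the library labelled AEG-1fl/fl, a log2 ratio of -0.82 (-0.84 to -0.81). Saa2 stood at 376 and 599.7 CPM, a log2 ratio of -0.67 (-0.70 to -0.65). Neither reached 2-fold, with Saa1 at 1.77-fold the member nearest below that limit. Saa3 stood at 61.3 CPM (59.3 to 63.2) and 156 CPM (153 to 159), 2.54-fold lower. Saa4, the constitutive form, went the other way, at 243 CPM (239 to 247) in the library labelled AEG-1DMAC and 98.4 CPM (96.0 to 101) in the library labelled AEG-1fl/fl, 2.47-fold higher.

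Among the lipocalins, Lcn2 was 2.31-fold lower in the library labelled AEG-1DMAC, with 11513 counts (183 CPM, 180 to 186) against 27551 (423 CPM, 418 to 428), and was the member nearest above the 2-fold limit. Orm3 was 3.01-fold higher, with 8118 counts (129 CPM, 126 to 132) against 2793 (42.9 CPM, 41.3 to 44.5). The 2 other orosomucoids, also of the lipocalin fold, did not follow it. Orm1 stood at 1960 and 2019 CPM, a log2 ratio of -0.04 (-0.05 to -0.03), and Orm2 at 230 and 276 CPM, a log2 ratio of -0.26 (-0.29 to -0.23). The most abundantly counted members differed little. Hp stood at 8651 and 9942 CPM, a log2 ratio of -0.20 (-0.21 to -0.20), and Fgb at 3810 and 3125 CPM, a log2 ratio of 0.29 (0.28 to 0.29).

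**Figure D1:**
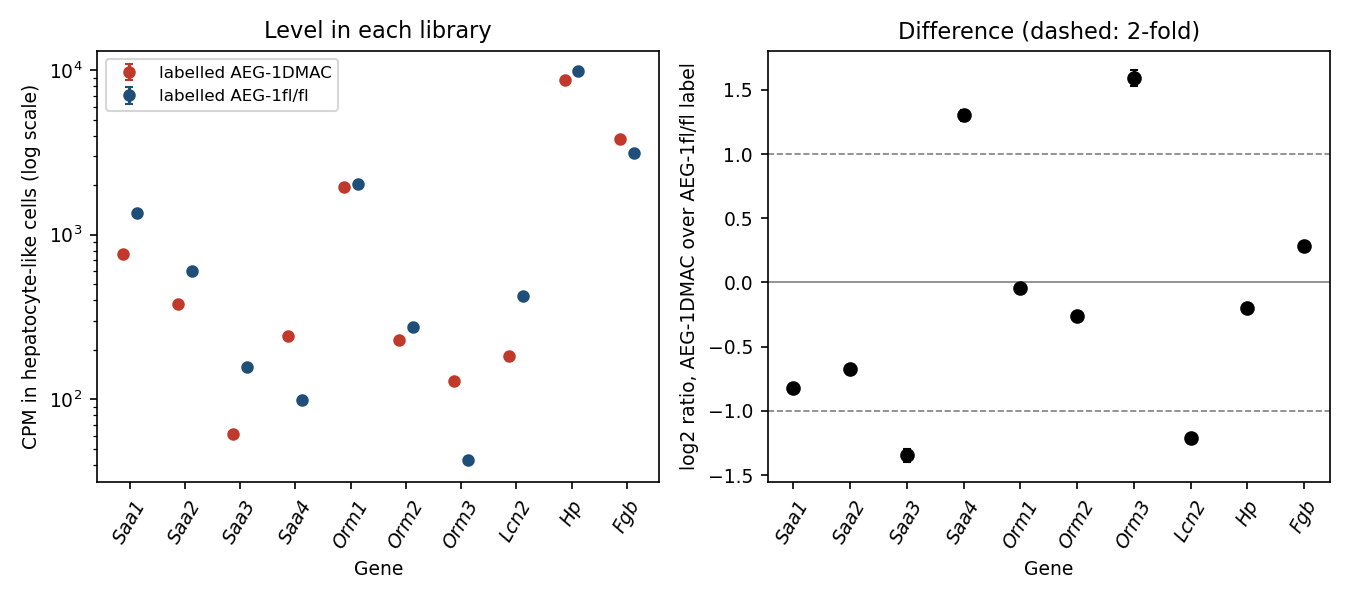
CPM of the 10 members in hepatocyte-like cells of each library (left, log axis) and the log2 ratio of the library labelled AEG-1DMAC over that labelled AEG-1fl/fl (right), with 95% counting intervals as bars, mostly smaller than the points. Saa3 and Lcn2 lie below the lower 2-fold line, Saa4 and Orm3 above the upper one, and Orm1 near 0.

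Single cells were compared after each hepatocyte-like cell had been thinned to 10000 counts, which left 1046 and 961 cells and set aside 217 and 312 shallower ones. Hp, Orm1 and Fgb were counted in 99.8% of these cells or more in both libraries, and the 10% of cells with the most counts held from 19.4% to 22.3% of the total. Saa3 had the largest share of its counts in the highest 10% of cells, at 79.6% in the library labelled AEG-1DMAC and 71.0% in the other. It was counted in 22.2% (19.7 to 24.8) and 37.7% (34.6 to 40.8) of the thinned cells, and in 43.2% and 52.4% of all hepatocyte-like cells before thinning.

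For Lcn2, 60.8% (57.8 to 63.8) of thinned cells in the library labelled AEG-1DMAC and 81.3% (78.7 to 83.7) in the library labelled AEG-1fl/fl had a count, with medians of 1 and 2 counts per 10000, 90th percentiles of 4 and 9 and maxima of 52 and 114. The whole distribution was thus shifted, and the most extreme cells were higher as well. Saa1 had medians of 4 and 7 counts per 10000, 90th percentiles of 17 and 34 and maxima of 93 and 354. Saa4 was counted in 83.6% (81.2 to 85.8) of cells in the library labelled AEG-1DMAC and 49.7% (46.5 to 52.9) in the other, and its highest 10% of cells held 30.1% and 44.4% of the counts. Orm3 was counted in 54.9% (51.8 to 57.9) and 25.5% (22.8 to 28.4) of cells, with 52.6% and 68.3% of its counts in the highest 10% of cells. The 90th percentiles of Orm3 were 5 and 1 and its maxima 27 and 13 counts per 10000, so in the library labelled AEG-1fl/fl most cells with a count had few. The share of counts in the highest 10% of cells also rises as a gene is counted less often. Differences in this share between genes or libraries of unlike level were not corrected for that. Before thinning, Lcn2, Saa4 and Orm3 had a count in 76.4%, 89.5% and 71.9% of the hepatocyte-like cells in the library labelled AEG-1DMAC and in 84.4%, 65.7% and 44.8% of the other.

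**Figure D2:**
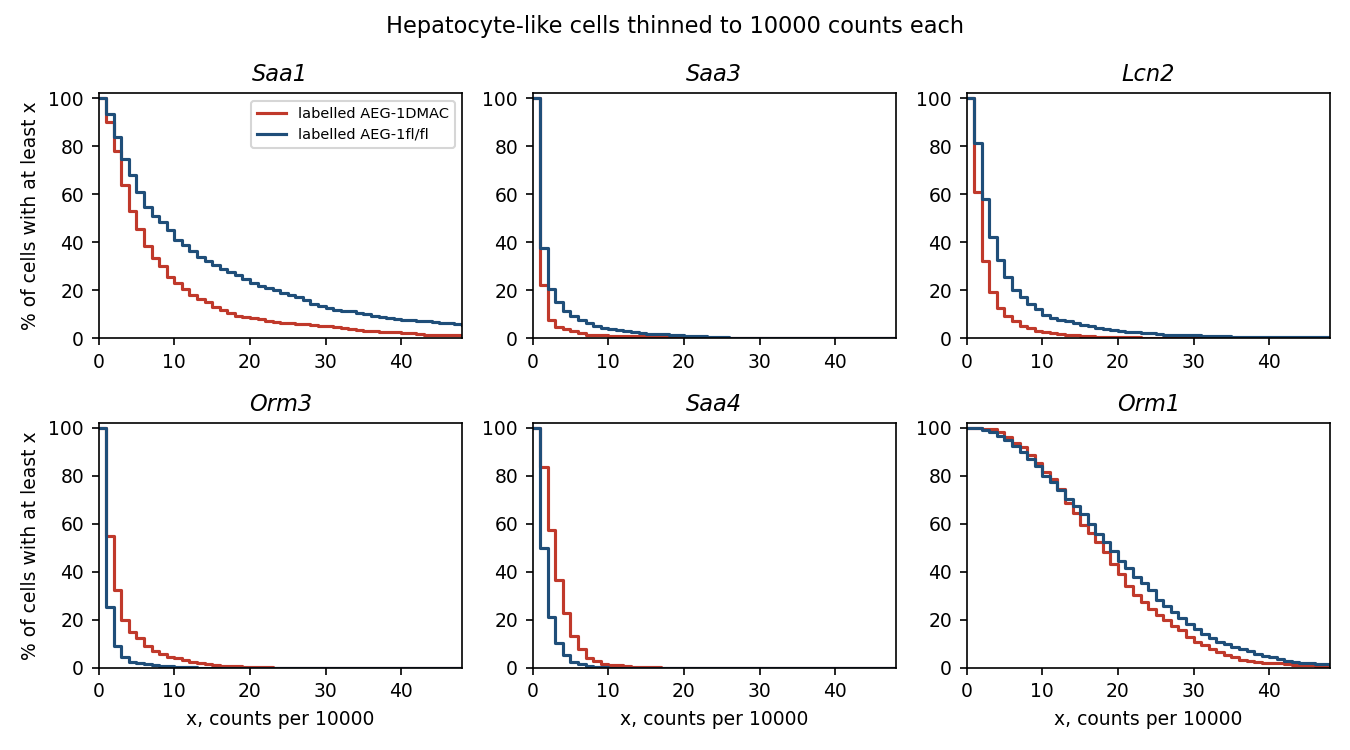
Percent of hepatocyte-like cells (y axis) with at least x counts of a gene per 10000 (x axis), each cell thinned to 10000 counts, for 6 members in the 2 libraries. The curves of Saa1, Saa3 and Lcn2 are higher in the library labelled AEG-1fl/fl, those of Orm3 and Saa4 in the library labelled AEG-1DMAC, and those of Orm1 nearly overlap.

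Hepatocytes differ along the axis from the portal vein to the central vein, and pericentral and periportal cells express different metabolic genes. Within each library the hepatocyte-like cells were cut into 3 equal parts by a score over 10 pericentral and 10 periportal marker genes. In the library labelled AEG-1DMAC, Uroc1, a periportal enzyme of histidine breakdown, stood at 124 CPM in the pericentral part and 611 CPM in the periportal part, and Lgr5, a gene of cells next to the central vein, at 24.7 and 0.845 CPM. Uroc1 stood at 96.2 and 522 CPM in the library labelled AEG-1fl/fl. Held-out pericentral genes summed to 2497 and 1373 CPM in the pericentral and periportal parts of the first library and to 2002 and 1171 CPM in those of the second.

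Of the 10 members, only Saa3 differed by 2-fold or more between the pericentral and periportal parts, in both libraries. The background was 4.34% of genes in the library labelled AEG-1DMAC and 4.14% in the library labelled AEG-1fl/fl, so that 1 of 10 members is not far from it. Saa3 was pericentral. Saa3 in the library labelled AEG-1DMAC rose along the axis from 35.6 CPM in the periportal part through 50.3 in the middle part to 106 CPM in the pericentral part, a log2 ratio of 1.58 (1.46 to 1.69). The values in the library labelled AEG-1fl/fl were 107, 125.1 and 248 CPM, a log2 ratio of 1.21 (1.15 to 1.28). The size of the difference depended on how it was computed. Averaging over cells in place of summing counts gave log2 ratios of 0.89, below 2-fold, in the library labelled AEG-1DMAC and 1.01 in the other, while the middle part of the nuclear score described below gave 2.56 and 1.51, and the cause was not tested.

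Fgb, Orm1 and Hp were periportal in both libraries, by less than 2-fold. The log2 ratios of the pericentral over the periportal part were -0.73 (-0.75 to -0.72) and -0.72 (-0.74 to -0.71) for Fgb, -0.62 (-0.64 to -0.60) and -0.57 (-0.59 to -0.55) for Orm1 and -0.39 (-0.40 to -0.39) and -0.37 (-0.38 to -0.36) for Hp, in the libraries labelled AEG-1DMAC and AEG-1fl/fl. For these genes the zone profile thus had nearly the same slope in both libraries. Orm3 peaked in the middle part, at 174 CPM in the library labelled AEG-1DMAC and 53.5 CPM in the other, with 87.4 and 32.8 CPM in the periportal part. The middle part also had the highest median of the nuclear score described below, with which Orm3 rose. In the library labelled AEG-1DMAC this median was 5.22, 14.4 and 6.85 counts per 10000 in the periportal, middle and pericentral parts. In the other library it was 7.60, 8.12 and 4.05. The share of the nuclear score in the Orm3 peak was not tested. Saa4 was lowest in the middle part, at 208 and 74.6 CPM, and highest in the pericentral part, at 308 and 118 CPM, but with means over cells its pericentral over periportal log2 ratio in the library labelled AEG-1fl/fl turned from 0.23 to -0.15. Lcn2 ranged from 147 to 217 CPM and from 384 to 457 CPM over the parts, and Orm2 from 201 to 264 and from 267 to 287 CPM, with no common slope.

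With summed counts, Saa1 and Saa2 had a periportal slope in 1 library only, whereas means over cells gave log2 ratios of -0.18 (Saa1) and -0.23 (Saa2) in the library labelled AEG-1DMAC as well, and the middle part of the nuclear score gave 0.51 and 0.38 there. In the library labelled AEG-1fl/fl, Saa1 fell from 1695 CPM in the periportal part through 1201 in the middle to 1074 CPM in the pericentral part, and Saa2 from 713 through 563 to 491 CPM. Saa1 in the library labelled AEG-1DMAC stood at 767, 713 and 824 CPM and Saa2 at 367, 369 and 397 CPM. The difference between the libraries accordingly grew towards the portal side, with Saa1 log2 ratios of -0.38 (-0.41 to -0.35) in the pericentral, -0.75 (-0.78 to -0.72) in the middle and -1.14 (-1.17 to -1.12) in the periportal part. This difference in slope was not tested, as there is 1 library on each side. Orm3 and Saa4 were higher in the library labelled AEG-1DMAC in each part, with log2 ratios from 1.41 to 1.70 and from 1.13 to 1.48, and Lcn2 and Saa3 were lower in each part, from -1.63 to -0.98 and from -1.59 to -1.22.

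**Figure D3:**
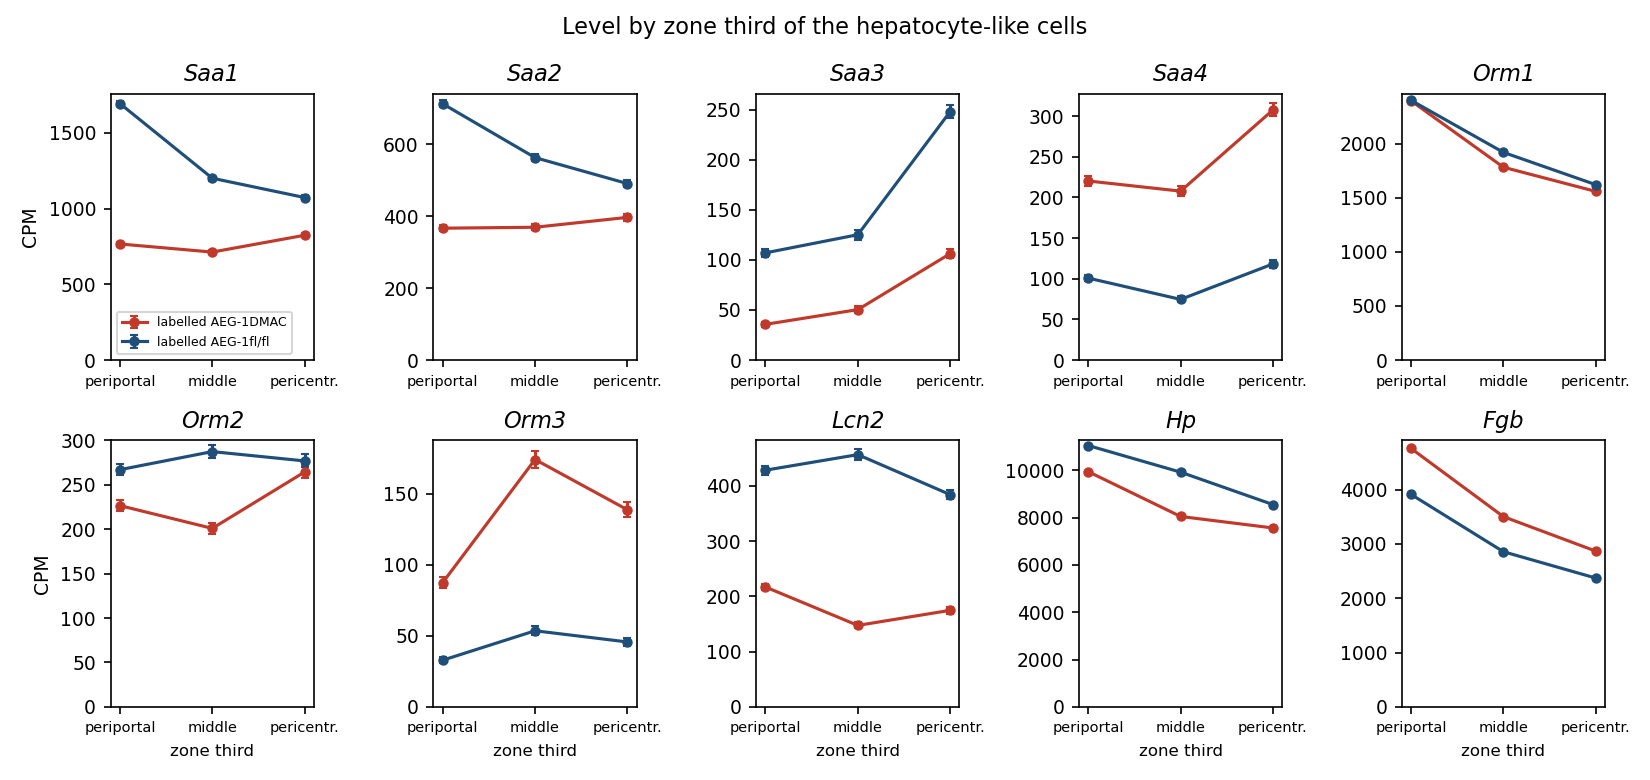
CPM (y axis, from 0) of each member in the periportal, middle and pericentral parts of the hepatocyte-like cells (x axis), with 95% counting intervals, for the 2 libraries. Saa3 is highest in the pericentral part of both libraries, Fgb, Orm1 and Hp are highest in the periportal part of both, and Saa1 and Saa2 slope towards the periportal part only in the library labelled AEG-1fl/fl, which holds for summed counts as drawn and not for means over cells.

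The hepatocyte-like cells also differed in how much of their RNA was of a nuclear kind, and the members followed this unequally. A list of 8 transcripts (Mlxipl, Clk1, Clk4, Ccnl2, Rsrp1, Pnisr, Ddx17 and Leng8), several of them known to be held in the nucleus, was written after such cells had been seen in the data, and the cells were cut into 3 equal parts by its summed level over both libraries together. From the low to the high part, the median mitochondrial share of counts fell from 3.75% to 1.66% in the library labelled AEG-1DMAC and from 3.93% to 1.38% in the library labelled AEG-1fl/fl, and Alb fell from 94242 to 48297 and from 83043 to 44107 CPM. The high part held 476 cells (37.7%) in the library labelled AEG-1DMAC and 370 (29.1%) in the other, so the libraries differed in this respect too. Values within the parts are given below, and the role of this mix was not otherwise tested.

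Between the high and the low part, 3 members (Saa2, Orm2 and Orm3) differed by 2-fold or more in the library labelled AEG-1DMAC and 4 (also Saa1) in the library labelled AEG-1fl/fl, beside 43.6% and 44.6% of all genes. This share of members was no higher than that of all genes. Orm3 was the 1 member that was over 2-fold higher in the high part. It stood at 65.4 CPM in the low, 73.6 in the middle and 254 CPM in the high part of the library labelled AEG-1DMAC, 3.89-fold apart, and at 32.4, 33.4 and 75.9 CPM in the library labelled AEG-1fl/fl, 2.34-fold apart. Orm2, its neighbor, fell from 319 to 155 CPM and from 340 to 169 CPM. Orm1 fell from 2451 to 1422 and from 2508 to 1298 CPM, Saa1 from 1036 to 580 and from 1673 to 801 CPM, and Saa2 from 545 to 271 and from 773 to 339 CPM. Fgb was lowest in the low part, at 2782 CPM against 4179 in the high part, and at 2321 against 3188 CPM.

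Within parts of the nuclear score, the differences between the libraries kept their direction for the 4 members past 2-fold. Orm3 was higher in the library labelled AEG-1DMAC by log2 ratios of 1.01 (0.85 to 1.18) in the low, 1.14 (1.04 to 1.24) in the middle and 1.74 (1.65 to 1.84) in the high part, so that its ratio was smaller in the cells with least nuclear RNA than the 1.59 over all hepatocyte-like cells. Saa4 ratios were 1.12, 1.18 and 1.67, those of Saa3 were -1.41, -1.29 and -1.09, and those of Lcn2 were -1.07, -1.19 and -1.16. Saa1 ratios were -0.69, -0.91 and -0.47.

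**Figure D4:**
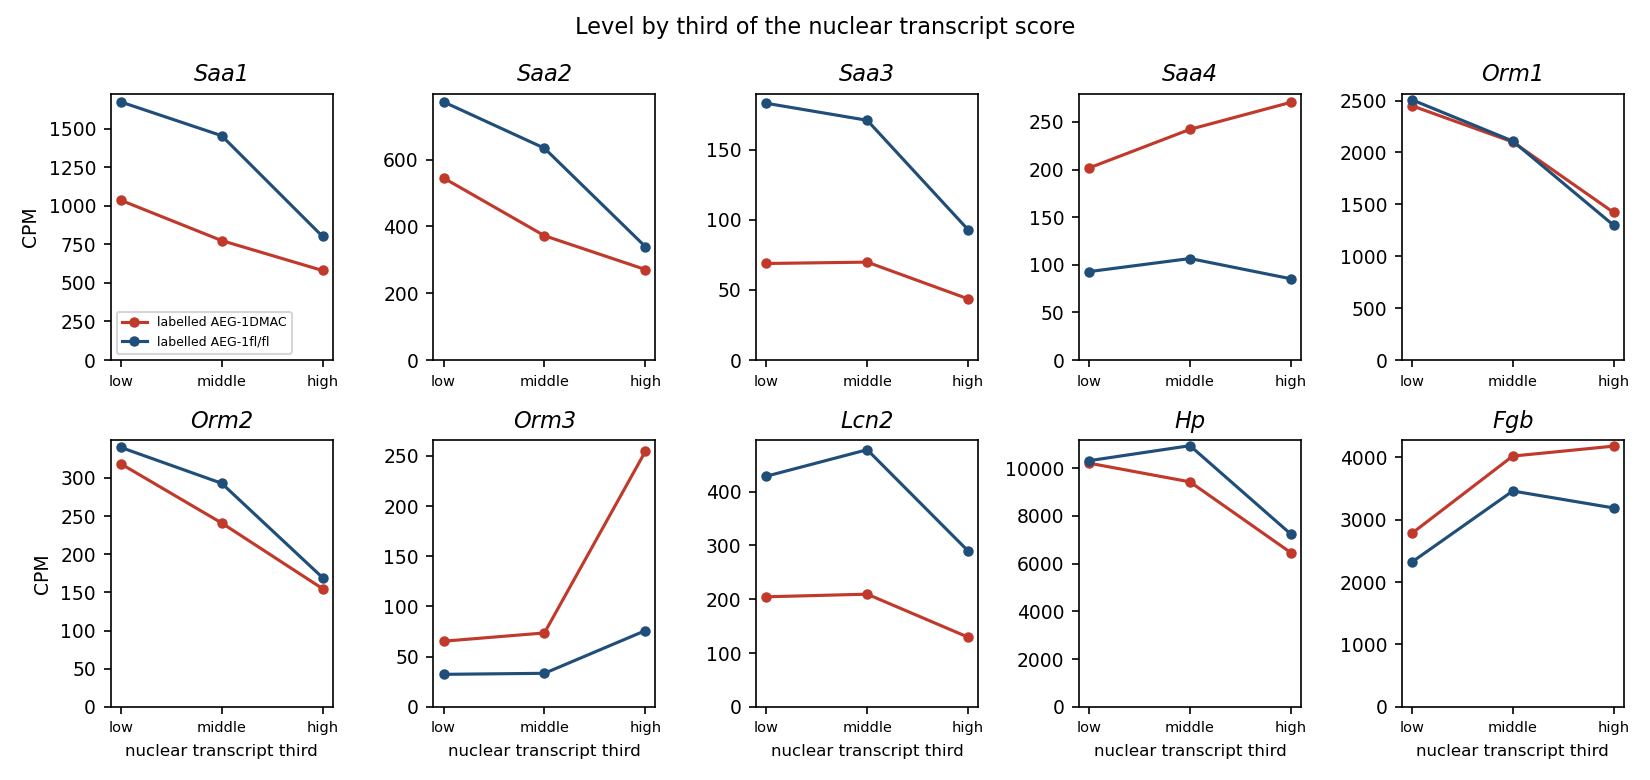
CPM (y axis, from 0) of each member in the low, middle and high parts of the summed level of 8 nuclear transcripts among hepatocyte-like cells (x axis), for the 2 libraries. Orm3 is highest in the high part of both libraries while Orm1, Orm2, Saa1 and Saa2 fall along the axis.

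In cells other than hepatocytes, counts of these genes have to be read against free hepatocyte RNA, which is counted along with the RNA of each cell. A list of 30 hepatocyte genes, none of them a member, gave the share of a class's counts against the same sum in hepatocyte-like cells of its own library. This share ranged from 21.7% in dendritic-like to 66.1% in stellate-like cells of the library labelled AEG-1DMAC, and from 28.02% in dendritic-like to 64.5% in neutrophil-like cells of the other. The level expected from free RNA is the share times the member's hepatocyte CPM. Over the 14 combinations of library and class with at least 20 cells, 128 of the 140 values of a member lay from 0.5 up to 2-fold of this level, with a median of 0.928, and 6 were at 2-fold or more. Of all genes with at least 20 CPM in hepatocyte-like cells, 52.9% were at 2-fold or more in the same combinations, as most genes are expressed by other cells too. The members were thus mostly at the level of free hepatocyte RNA outside hepatocytes.

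Macrophage-like cells, the class in which AEG-1 was to be deleted, numbered 327 and 791. Their held-out markers (Folr2, Slc40a1, Mrc1, Lyz2, Cybb and Mpeg1) summed to 5012 and 5466 CPM. All 10 members were near the expected level in them, from 0.763 (Saa4) to 1.28 (Saa3) in the library labelled AEG-1DMAC and from 0.684 (Orm3) to 1.15 (Saa1) in the library labelled AEG-1fl/fl. Saa3, which macrophages can express, stood at 45.9 CPM against 35.9 expected in the library labelled AEG-1DMAC and at 67.4 against 63.7 CPM in the other. Lcn2 stood at 89.1 against 107 CPM and at 162 against 173 CPM. No member reached 2-fold over free hepatocyte RNA in macrophage-like cells of either library. Of all genes with at least 20 CPM in hepatocyte-like cells, 43.1% and 64.8% did so there, in the libraries labelled AEG-1DMAC and AEG-1fl/fl. In the library labelled AEG-1DMAC the counting intervals of Saa3 (1.09 to 1.49) and Saa1 (1.01 to 1.11) lay above 1. In the library labelled AEG-1fl/fl those of Saa1 (1.12 to 1.18) and Saa2 (1.05 to 1.15) did, and that of Saa3 (0.967 to 1.16) did not. In endothelial-like and stellate-like cells, too, no member reached 2-fold. The shares of all genes were 47.3% and 68.9% in endothelial-like and 28.3% and 52.4% in stellate-like cells, in the same order of libraries. Saa3 in stellate-like cells of the library labelled AEG-1fl/fl was the highest at 1.57 (1.42 to 1.73), which became 2.63 under a stricter gate.

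Cholangiocyte-like cells, the bile duct epithelium, carried Lcn2 above free hepatocyte RNA in both libraries. In the library labelled AEG-1fl/fl the 97 cells had 1380 counts (782 CPM, 741 to 824) against 212 CPM expected, 3.69-fold (3.501 to 3.89), and above the 423 CPM of hepatocyte-like cells. A count was found in 86 of the 97 cells (88.7%), at a median of 8921 counts per cell, while 23.5% of T and NK-like cells, which should lack the gene, had one at a median of 2765 counts. Without the cell with the most Lcn2 counts the value was 4.15-fold. The 30 cells in the library labelled AEG-1DMAC had 74 counts (170 CPM) against 81.6 CPM expected, 2.08-fold (1.63 to 2.61), and 1.97-fold without the highest cell. Of all genes, 72.4% and 68% were past 2-fold in the cholangiocyte-like cells of the libraries labelled AEG-1DMAC and AEG-1fl/fl. Lcn2 was the 1 member past 2-fold over free hepatocyte RNA there. Saa3 in the library labelled AEG-1fl/fl was below the expected level at 0.370-fold (0.276 to 0.487), with 51 counts against 138 expected.

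Neutrophils store lipocalin 2 in their granules. Neutrophil-like cells numbered 46 in the library labelled AEG-1fl/fl, and 6 in the other, too few to read. The held-out neutrophil genes had a median over the 46 cells of 5.80 counts per 10000, against 0 in macrophage-like cells of that library. They summed to 11182 CPM against 25.5 CPM, though how this sum was spread over the 46 cells was not examined. The held-out macrophage genes had a median of 20.2 in the 46 cells, against 55.5 in macrophage-like and 15.7 in endothelial-like cells, so the name is not certain. The 46 neutrophil-like cells had 275 Lcn2 counts (1844 CPM, 1632 to 2075) against 273 CPM expected, 6.76-fold (5.98 to 7.61). However, 210 of these counts (76.4%) were in 1 cell, and without it the value was 1.62-fold. Saa3 stood at 442 CPM (342 to 563), 4.402-fold (3.40 to 5.60) over the 101 CPM expected, with 40 of its 66 counts in 1 cell and a value of 1.75-fold without that cell. Among all genes, 27.3% were past 2-fold in this class. Saa1 and Saa2 were 2.20-fold and 2.41-fold over free RNA in the 98 T and NK-like cells of the library labelled AEG-1fl/fl, where 63.7% of genes were past 2-fold. There, too, 1 cell held 63.0% of the Saa1 and 75.7% of the Saa2 counts, and the values without it were 1.08 and 0.777. Only Lcn2 in cholangiocyte-like cells of the library labelled AEG-1fl/fl was past 2-fold however the single highest cell was treated. Doublets had not been removed, and the part of cell pairs in the single cells named here was not tested.

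**Figure D5:**
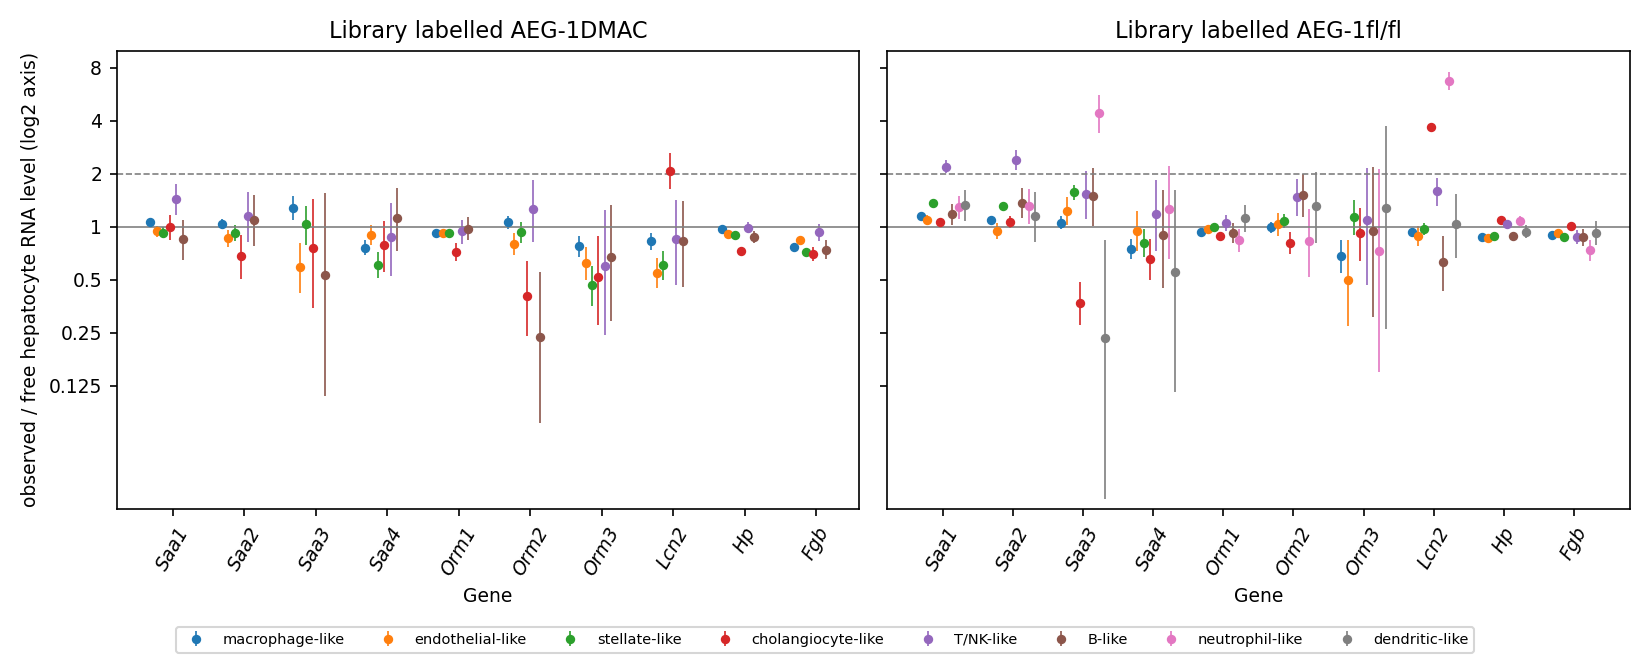
Observed CPM of each member over the level expected from free hepatocyte RNA (y axis, log2 scale, bars for 95% counting intervals, dashed line at 2-fold) in each class with at least 20 cells, for the 2 libraries. Most points lie near 1, those above 2 are Lcn2 in cholangiocyte-like and neutrophil-like cells, Saa3 in neutrophil-like cells and Saa1 and Saa2 in T and NK-like cells, and Saa3 in T and NK-like cells of the library labelled AEG-1DMAC had 0 counts and is not drawn.

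Across hepatocyte-like cells with at least 10000 counts, the members fell into groups by which genes they varied with. Spearman correlations of counts per 10000 were taken over 1046 and 961 cells within each library. They describe cells that share a library, depth and free RNA and that differ in the nuclear score described above. Saa1 and Saa2 went together most closely, with rho of 0.83 in the library labelled AEG-1DMAC and 0.90 in the other, a value that near-identical copies would also give if probes were shared between them. Lcn2 followed Saa1 at 0.51 and 0.49 and Hp at 0.49 and 0.57, and Hp followed Orm1 at 0.70 and 0.55. Saa3 was less closely tied to Saa1 (0.36 and 0.32) and to Lcn2 (0.30 and 0.33). Orm3 stood apart, with rho of -0.41 and -0.13 to Hp, -0.29 and 0.03 to Orm1 and -0.18 and 0.14 to Orm2. Saa4 had rho of 0.04 and 0.29 to Saa1.

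Outside the 10 members, the nearest gene was Lrg1 for Saa1 and Saa2, Hpx for Orm1, Lcn2 and Hp, and Fgg for Fgb. Lrg1, Hpx and Fgg are on the list of positive acute-phase genes described below. The nearest genes of Saa3, Saa4, Orm2 and Orm3 are not. The share of that list among the 2842 genes ranked was not computed, so these matches have no background beside them. The genes most like Saa1 and Saa2 were Lrg1, which encodes a secreted leucine-rich glycoprotein, Hpx, the heme-binding hemopexin, and the protease inhibitor gene Serpina3n, with rho for Saa1 of 0.50 and 0.53 to Lrg1. Those most like Lcn2 were Hpx (0.47 and 0.47), Cp, which encodes the copper protein ceruloplasmin (0.35 and 0.50), and Lrg1 (0.37 and 0.47). For Saa3 they were the class I histocompatibility gene H2-K1 (0.29 and 0.27), Lrg1 and the complement gene Cfb. Hp was nearest to Hpx (0.85 and 0.75), Cfb and Clu, and Orm1 to Hpx (0.79 and 0.71), Ambp and Apoc3. Fgb was nearest to the genes of the other fibrinogen chains, Fgg (0.86 and 0.87) and Fga (0.75 and 0.87), and then to the amino acid transporter gene Slc38a3. Orm2 was nearest to Clu (0.53 and 0.48), Apoa4 and Trf.

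The genes nearest to Saa4 and Orm3 included enzymes of hepatocyte metabolism. Those most like Saa4 were Hpd, an enzyme of tyrosine breakdown (0.33 and 0.26), Por, the electron donor of cytochromes P450, and Serpina3m, which is among the positive acute-phase genes. Those most like Orm3 were Slc27a2, which encodes a fatty acid transporter of peroxisomes and the endoplasmic reticulum (0.52 and 0.25), the bile acid synthesis gene Cyp27a1 (0.49 and 0.24) and Adam11 (0.48 and 0.23), and were weaker in the library labelled AEG-1fl/fl. Orm3 was also highest in the high part of the nuclear score in both libraries. The share of that score in these correlations was not tested. After thinning to 10000 counts per cell, 20 of the 30 nearest genes of the 10 members were the same. The single nearest gene then became Hpx for Saa1 and Saa2, and for Saa3 it became Trf, which is on the list of negative acute-phase genes described below.

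Other acute-phase genes of hepatocytes differed between the libraries by less than 2-fold. Of 26 positive acute-phase genes outside the members that reached 20 CPM, 0 differed by 2-fold, beside 1.19% of all genes, so that this count is not apart from the background. Their median log2 ratio was -0.22, against 0.02 over all genes. For 17 of them the counting interval lay below 0 and for 8 above, but at these counts even small differences exclude 0. The same share over all genes was not computed, so this split has no background beside it. The lowest were Lrg1 at -0.70 (891 and 1452 CPM), the pentraxin gene Apcs at -0.70 and the complement factor gene Cfb at -0.56. The highest were the fibrinogen genes Fgg at 0.48 (3459 and 2486 CPM) and Fga at 0.26, and C4b at 0.25. Fgb at 0.29 thus lay between the other fibrinogen chains. Of 13 negative acute-phase genes, whose transcripts fall in the response, 0 differed by 2-fold and the median was -0.02. The lowest were Trf, which encodes transferrin (-0.70), Igfals (-0.61) and Ahsg (-0.33), and the highest were Cyp2e1 (0.45), Ttr (0.27) and Apoa2 (0.25).

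Genes for receptors and signalling upstream of the members were also without a 2-fold difference, which at 1.19% of all genes says little about lists of this size. Of 9 receptor genes at 20 CPM or more, which were cytokine receptor genes apart from the glucocorticoid receptor gene Nr3c1, 0 differed by 2-fold, with a median log2 ratio of -0.03. They ranged from Il6ra, the interleukin-6 receptor (-0.25, 50.8 and 60.3 CPM), Il6st (-0.15) and Nr3c1 (-0.13) at the low end to Il1rap (0.02), Il1r1 (0.04) and Tnfrsf1b (0.15) at the high end. Of 15 signalling genes, 0 differed by 2-fold, with a median of -0.04. Cebpa (-0.25) and Nfkbiz (-0.23) were among the lowest, and the highest were Jak1 (0.07), Rela (0.07) and Stat3 (0.16). None of the 12 cytokine ligand genes reached 20 CPM in hepatocyte-like cells.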

How the data were processed

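The authors deposited raw counts of molecules per gene and cell, made with Cell Ranger (7.1.0 in the submitters' processing notes) from the fixed RNA mouse probe kit and the mm10 reference. No normalization had been applied. The members and gene lists were chosen with earlier results of these data known. Cells needed 100 detected genes and a mitochondrial share of no more than 10% to be kept. A cell was given to 1 of 8 nonparenchymal types when its summed markers passed the cut of that type, with at least 3 markers counted and every other type below 0.5 of the best. It was called hepatocyte-like when all 8 scores were below 0.5 of their cuts and hepatocyte markers made up at least 200 counts per 10000. Doublets were kept. The cuts were set after the markers had been seen in these cells. Counts were summed per class, and values are CPM with exact Poisson intervals and log2 ratios with Clopper-Pearson intervals given the summed count. Percents of cells have Clopper-Pearson intervals over the cells. A 2-fold difference was the limit, without a test. The functions were tested on simulated data. Genes named outside the members were the 3 highest and 3 lowest ratios of each list and the 3 most correlated genes of each member, except 1 gene that is not reported here. Python 3.11.15, NumPy 2.4.6, SciPy 1.17.1, pandas 2.3.3 and matplotlib 3.10.9 were used.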

Additional observations from a re-analysis of the deposited data

Results flagged for a closer look

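The zone slope of Saa1 had opposite signs in the 2 libraries. The log2 ratio of the pericentral over the periportal part was 0.10 (0.07 to 0.14) in the library labelled AEG-1DMAC and -0.66 (-0.68 to -0.63) in the library labelled AEG-1fl/fl. Saa2 had log2 ratios of 0.11 (0.07 to 0.16) and -0.54 (-0.57 to -0.50). The difference between the libraries was not tested, since each is a single library. With values averaged over cells in place of summed, the ratios in the library labelled AEG-1DMAC were -0.18 for Saa1 and -0.23 for Saa2, of the same sign as in the other library, while among cells of the middle part of the nuclear score they were 0.51 and 0.38, against -0.66 and -0.54 in the other library. The ratio of Saa2 in the library labelled AEG-1DMAC in the outer 20% of cells on either side was -0.12. Saa1 and Saa2 are near-identical copies, so they are not independent cases.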

How the results depend on the processing

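No paired analysis was possible because each genotype has 1 library. The count of 4 members past 2-fold between the libraries was 4 under each of the 6 planned and 4 added alternatives, and none of the 100 ratios of single members changed sign where the member was past 2-fold. The ratio of Orm3 ranged from 1.14 to 1.83, that of Saa3 from -1.62 to -1.19, that of Lcn2 from -1.25 to -1.07 and that of Saa4 from 1.18 to 1.46. Without the filter on low values the share of all genes past 2-fold was 14.5% between the libraries and 17.9% and 17.3% between the zones of the libraries labelled AEG-1DMAC and AEG-1fl/fl, as the genes with few counts then enter. The 1 member past 2-fold between zones in both libraries became 0 with means over cells. The 6 values past 2-fold over free hepatocyte RNA were 6 to 8 under the other alternatives, not all of them the same values, and 1 without the cell with the most counts of the member, an alternative chosen after the data were seen, as were those by nuclear score, by zone, with few nonparenchymal counts, without the highest 1% of cells and relative to T, NK and B-like cells. Relative to those lymphocytes, Saa3 in macrophage-like cells of the library labelled AEG-1DMAC was 4.75-fold, where the lymphocytes had 3 counts in all. Depth limits the smaller classes: 3 counts in the neutrophil-like cells of the library labelled AEG-1fl/fl are 20.1 CPM.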

Other observations

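Genes for cytokines that induce the response and for receptors and handling of the acute-phase proteins were named after their values had been seen. Most were at a higher CPM in some other class than in hepatocyte-like cells. Il1b was counted at 1508 CPM (225 counts) in neutrophil-like and 53.9 CPM in macrophage-like cells of the library labelled AEG-1fl/fl. In macrophage-like cells of the library labelled AEG-1DMAC it was counted at 108 CPM. Il1a was highest in endothelial-like cells, at 124 and 127 CPM in the libraries labelled AEG-1DMAC and AEG-1fl/fl. Il6 had 5 and 0 counts in macrophage-like cells. Cd163, the receptor for haptoglobin bound to hemoglobin, stood at 75.8 and 87.1 CPM in macrophage-like and 1.67 and 1.03 CPM in hepatocyte-like cells. Hmox1, which breaks down heme, stood at 470 and 661 CPM in macrophage-like cells. Fpr2, a receptor for serum amyloid A, stood at 64.2 and 43.3 CPM in macrophage-like cells and at 134 CPM (20 counts) in neutrophil-like cells of the library labelled AEG-1fl/fl. How the Il1b and Fpr2 counts were spread over these 46 neutrophil-like cells was not examined. Slc22a17, a receptor for lipocalin 2, stood at 50.5 and 31.2 CPM in cholangiocyte-like and at 13.8 and 28.8 CPM in endothelial-like cells. Lrp2, another receptor for it, had 0 counts in cholangiocyte-like cells. In hepatocyte-like cells 4 of 14 genes for receptors and handling of these proteins reached 20 CPM, and 0 of them differed by 2-fold between the libraries. In the libraries labelled AEG-1DMAC and AEG-1fl/fl these were Lrp1 (569 and 538 CPM), Cd36 (248 and 274), Scarb1 (164 and 190) and Hmox1 (32.2 and 29.4).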
